A study of Mus musculus with 6 samples.

Results

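The genes of the unfolded protein response, its chaperones and the heat shock response were examined in stromal vascular cells, the non-adipocyte cells of fat, taken from the mesenteric depot of obese mice given propolis or vehicle. They are 11 chaperones and co-chaperones of the endoplasmic reticulum (ER) lumen, 4 protein disulfide isomerases, 5 stress sensors and transcription factors, 5 targets of the kinase PERK and the transcription factor ATF4, 4 genes of ER-associated degradation, 9 cytosolic heat shock genes and 2 subunits of the mitochondrial chaperonin. Membership was set by a list of 40 symbols, and each array probe was assigned to a gene by its transcript accession. Of the 40, 39 had a probe and all 39 passed the filter on dim signals, out of 25777 genes and transcripts tested. Hspa1b had no probe assigned to it, and its near-identical neighbour Hspa1a may share signal with it.

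All mice were male and leptin-deficient, of the strain C57BL/6JHamSlc-ob/ob, so the obesity mutation was carried by both groups. One group of 3 samples received Brazilian propolis, an ethanol extract of bee resin, injected intraperitoneally over 12 weeks in doses of 100 mg/kg, 2 times a week, and the other 3 received a vehicle with low concentrations of DMSO and ethanol over the same 12 weeks. Cells were released from the fat by collagenase, red cells were lysed, and total RNA was hybridised to 1-colour arrays. The labels give no ages and no number of mice per sample, so p-values measure the spread between these samples only.

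The ER folds secreted and membrane proteins. When unfolded proteins accumulate there, the sensors IRE1 (encoded by Ern1), PERK (Eif2ak3) and ATF6 raise chaperones, disulfide isomerases and degradation factors, while PERK lowers general translation and favours ATF4, whose targets include Ddit3 and Trib3. Unfolded proteins in the cytosol act through the heat shock factor HSF1 on a separate set of chaperones. In adipose tissue of obese animals ER stress has been linked to inflammation and insulin resistance.

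A known element was found in the promoters of some ER members, and several of those stretches are shown as a description of sequence. Of the ER members searched, all 10 with either form of it and 6 of 7 with neither had their highest level in propolis 1. Any part of the element in these levels was not tested. RefSeq promoter windows of the assembly GRCm38.p6, from 250 bases before to 50 after the annotated start, were given for 33 members as 36 windows. The ER stress element was searched as CCAAT, 9 bases of any kind and CCACG, on both strands, so each match also holds the short motifs CCAAT and CCACG. It lay in 8 of the 36 member windows (22.2%) and in 39 of all 32851 windows (0.119%). Those 8 were Hspa5, Hsp90b1, Calr, Canx, Dnajc3, Creld2, Pdia6 and Syvn1, and among the ER lumen genes 6 of 9 windows held it (66.7%). A shorter form, ER stress element II, searched as ATTGG, 1 base and CCACG, lay in the windows of Dnajb11 and Herpud1 and in 12 of all windows (0.0365%). In the stretches that follow, written along the gene's strand, capitals mark the element.
Hspa5, chr2:34772005-34772063, plus strand: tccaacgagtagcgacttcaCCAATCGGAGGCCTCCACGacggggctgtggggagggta
Canx, chr11:50325780-50325838, minus strand: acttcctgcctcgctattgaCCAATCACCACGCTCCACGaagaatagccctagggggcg
Dnajc3, chr14:118937807-118937865, plus strand: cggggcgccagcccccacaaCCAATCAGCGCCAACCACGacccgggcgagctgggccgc
Creld2, chr15:88819500-88819558, plus strand: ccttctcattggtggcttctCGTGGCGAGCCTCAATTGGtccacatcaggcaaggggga
Pdia6, chr12:17266471-17266529, plus strand: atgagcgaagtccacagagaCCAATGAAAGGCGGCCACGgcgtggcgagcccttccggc
Syvn1, chr19:6046512-6046570, plus strand: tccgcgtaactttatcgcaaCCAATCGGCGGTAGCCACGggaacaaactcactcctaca
Herpud1, chr8:94386357-94386407, plus strand: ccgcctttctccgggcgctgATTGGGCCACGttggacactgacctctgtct

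In Creld2 the element reads on the opposite strand, and in Hsp90b1, the gene of the ER paralogue of HSP90, it occurred 2 times in 1 window. The heat shock element was searched as 3 alternating units of GAA and TTC, each separated by 2 bases, on both strands. It lay in 4 of the 36 member windows (11.1%), those of Hsph1, Hspd1 and Hspe1, and in 198 of all windows (0.603%). The windows of Hspa1a, Hspa1b, Hspb1 and Dnajb1 held no match to this form. Hspd1 and Hspe1 lie head to head and share 1 such stretch, which is shown from the Hspe1 strand with the element in capitals. Both genes were highest in propolis 1 and lowest in propolis 3, and any part of the element in that was not tested.
Hspe1, chr1:55088039-55088096, plus strand: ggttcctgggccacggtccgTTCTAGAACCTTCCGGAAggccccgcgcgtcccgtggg

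The core TGACGTGG, bound by XBP1 and ATF6, and the composite TGATGNAAT of ATF4 targets were found in none of the 36 member windows, against 0.676% and 0.965% of all windows. A match describes letters in a window and not a bound site.

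Values are log2 intensities relative to the 75th percentile of each array, errors after ± are SDs with n = 3, and differences are propolis minus vehicle on the log2 scale. The tissue label was checked against marker lists. The 9 adipose stromal progenitor markers averaged 6.01 to 6.36 on all arrays and the 9 macrophage markers 4.22 to 4.63. Pancreatic and intestinal markers each stood out in 1 vehicle array: 6 of 14 acinar markers passed the filter and averaged 4.12 in vehicle 2, against -3.74 to -2.93 elsewhere, and 10 intestinal markers averaged 4.70 in vehicle 3, against -4.15 to -0.20. The isomerase gene Pdia2, an acinar marker that is not a member, was at 0.82 in vehicle 2 and at -5.28 to -3.60 elsewhere. The 8 mesothelial markers all had higher means after propolis and 2 passed, Bnc1 (adjusted p = 0.0299) and Wt1 (adjusted p = 0.0320). Wt1 lost the call without any 1 array (0.0575 to 0.144) and Bnc1 without any except vehicle 1 (0.0711 to 0.127). The 7 adipocyte, 7 endothelial, 7 B cell and 7 T cell markers all had lower means. Adipocyte markers averaged 1.23 to 3.09, with Fabp4 at 7.02 to 8.06 and Lpl at 5.33 to 7.12. B cell markers averaged 1.36 in vehicle 2, against -2.78 to -0.38 elsewhere. The part of these cell types in the results that follow was not tested. Between 61.1% and 66.7% of spots stood well above background, and vehicle 1, vehicle 2, propolis 1 and propolis 2 shared slide 1 while vehicle 3 and propolis 3 shared slide 2.

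No member passed the limma test at an adjusted p of 0.05, against 0.722% of all genes higher and 0.113% lower. The means of 37 of the 39 members were higher after propolis and those of Ern1 and Trib3 were lower, while 50.4% of all genes had lower means. The count of higher means was 34 of 39 after quantile scaling and 38 of 39 after median scaling, which also moved the median difference of all genes up to 0.154. The median difference was 0.33 over the members and close to 0 (-0.0041) over all genes. At an unadjusted p under 0.05, 4 members had higher means (Pdia3, Pdia4, P4hb and Hspb1), against 7.24% of all genes, and 1 had a lower mean (Trib3), against 4.48%. The arrays of the groups did not overlap for 8 members with higher means, against 10.8% of all genes, and for 1 with a lower mean, against 6.62%.

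Those counts rested on few arrays. Without propolis 1 the median difference of the members was 0.12, 32 of 39 means were higher, and only Trib3 and Hspb1 kept an unadjusted p under 0.05, where 9.46% of all genes did. Without vehicle 1 they were again Trib3 and Hspb1, against 7.66% of all genes, and without vehicle 2 they were Pdia4, Trib3 and Hspb1, against 8.09%. With slide as a block, 8 members reached that level, against 16.7% of all genes, and none passed the adjusted threshold.

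**Figure D1:**
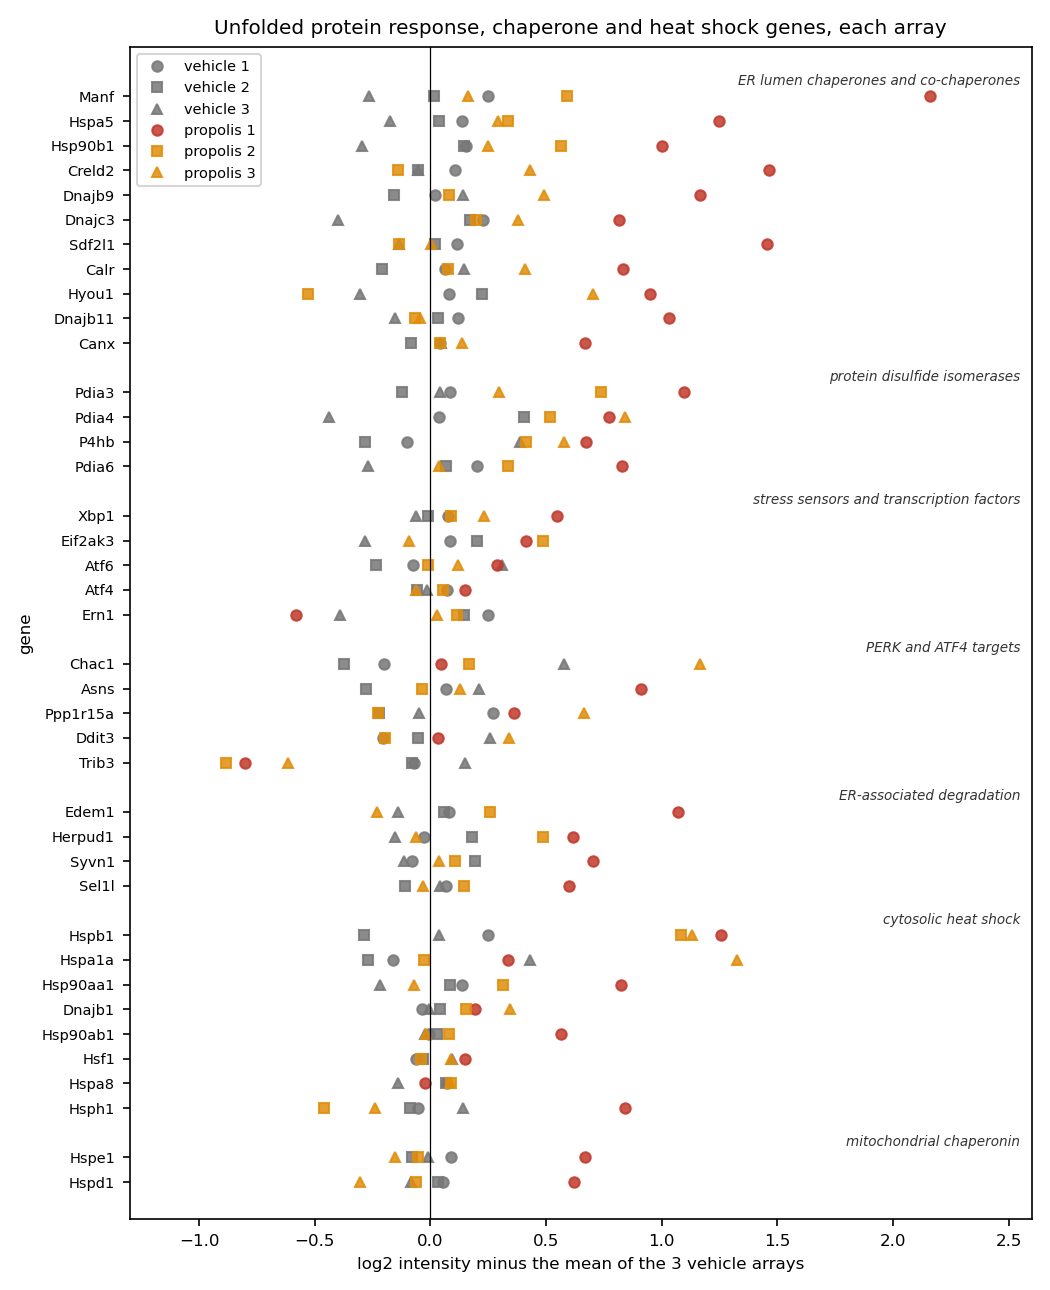
Log2 intensity of each of the 39 measured genes on each of the 6 arrays, minus that gene's mean over the 3 vehicle arrays (x axis), with genes grouped by role (y axis). Grey symbols are vehicle arrays, the red circle is propolis 1 and orange symbols are propolis 2 and 3. For 28 of 39 genes the red circle is the rightmost symbol, for Hspb1 all 3 propolis arrays lie to the right of the vehicle arrays, and for Trib3 all 3 lie to the left.

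Among the ER lumen chaperones, all 11 means were higher after propolis by 0.28 to 0.97, with a median of 0.46, and 0 of 11 reached an unadjusted p under 0.05. Hspa5 encodes BiP, the ER HSP70 that also holds the stress sensors inactive. It measured 6.36, 6.26 and 6.05 in vehicle 1 to 3 and 7.47, 6.56 and 6.51 in propolis 1 to 3, a difference of 0.63 with a 95% confidence interval of -0.09 to 1.34 and a limma adjusted p of 0.497. All 3 propolis arrays were above the vehicle arrays, and propolis 1 stood far above the rest.
Hsp90b1, encoding GRP94, the ER chaperone of the HSP90 family, was at 6.11, 6.10 and 5.66 in the vehicle arrays and 6.96, 6.52 and 6.21 after propolis, a difference of 0.60 (interval -0.01 to 1.22, adjusted p = 0.439). These too did not overlap, and the gap between the highest vehicle and the lowest propolis array was small.
The largest mean difference in the group was that of Manf, which encodes a secreted ER stress-inducible factor. Its levels were 3.37, 3.13 and 2.85 in vehicle and 5.28, 3.71 and 3.28 in propolis, and the difference of 0.97 had an interval of -0.28 to 2.22. Propolis 3 lay within the vehicle range, and the difference was 0.38 without propolis 1.

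Sdf2l1, a partner of BiP, showed the same split more sharply. It was at 2.31, 2.21 and 2.06 in vehicle, at 3.65 in propolis 1 and at 2.06 and 2.20 in propolis 2 and 3. Its difference of 0.44 turned to -0.07 without propolis 1. Creld2, a disulfide-exchange protein of the ER, measured 4.24, 4.08 and 4.08 in vehicle and 5.60, 3.99 and 4.57 in propolis, so propolis 2 was the lowest array and propolis 1 the highest. Dnajb9 (ERdj4) and Dnajb11 (ERdj3), J-domain co-chaperones of BiP, were at 2.96 and 4.58 in propolis 1, against 1.63 to 1.93 and 3.40 to 3.67 in vehicle. In propolis 2 and 3 Dnajb11 was at 3.48 and 3.51, inside the vehicle range, and its difference of 0.31 was -0.06 without propolis 1. Dnajc3, an inhibitor of PERK, and Hyou1, the nucleotide exchange factor of BiP, had differences of 0.46 and 0.37. Hyou1 was the dimmest member, at -2.45, -2.31 and -2.84 in vehicle and -1.59, -3.06 and -1.83 in propolis. Its lowest array was propolis 2, and its difference was 0.06 within slide 1 and 1.01 within slide 2. Calr and Canx encode calreticulin and calnexin, the lectin chaperones of glycoproteins, and differed by 0.44 and 0.28.

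All 11 of these chaperones were highest in propolis 1. The distance from propolis 1 to the mean of propolis 2 and 3 had a median of 0.88 and ran from 0.53 for Dnajc3 to 1.78 for Manf. Without propolis 1 the median difference of the group was 0.24, and 9 of 11 means were higher. The difference was then 0.31 for Hspa5, 0.29 for Dnajc3, 0.24 for Calr, 0.15 for Creld2, and 0.09 for both Canx and Hyou1.

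The 4 protein disulfide isomerases, which form and reshuffle disulfide bonds in the ER, had the highest median difference of the member groups, 0.63, with a range of 0.40 to 0.71. Pdia3, the isomerase that works with calnexin and calreticulin, was at 3.95, 3.74 and 3.90 in vehicle and 4.96, 4.60 and 4.16 in propolis. Its difference was 0.71 (interval 0.13 to 1.29), with an unadjusted p of 0.0237 and a limma adjusted p of 0.317. Pdia4 measured 1.31, 1.68 and 0.83 in vehicle and 2.04, 1.79 and 2.11 in propolis, a difference of 0.71 (interval 0.09 to 1.33, adjusted p = 0.354). P4hb encodes the classical isomerase PDI, which is also a subunit of collagen prolyl 4-hydroxylase. It was at 4.09, 3.91 and 4.58 in vehicle and 4.87, 4.61 and 4.77 in propolis, a difference of 0.55 (interval 0.01 to 1.10, adjusted p = 0.415).
For these 3 genes the groups did not overlap, with propolis higher, as for 10.8% of all genes. Vehicle 3 came close to propolis 2 for P4hb, and vehicle 2 to propolis 2 for Pdia4. The difference of Pdia4 was 0.42 within slide 1 and 1.28 within slide 2. Pdia6, which acts on IRE1 and other clients, overlapped, with a difference of 0.40 (adjusted p = 0.648) that was 0.19 without propolis 1. The median of the 4 was 0.51 without propolis 1, so it moved less than that of the ER lumen chaperones. Within slide 1 (2 arrays of each group) the median was 0.59 and within slide 2 (1 of each) it was 0.28.

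The sensors and transcription factors differed little, with a median of 0.13. Xbp1, whose mRNA is spliced by IRE1 to yield an active factor, was at 5.71, 5.62 and 5.57 in vehicle and 6.18, 5.72 and 5.86 in propolis. Its arrays did not overlap and its difference was 0.29 (interval -0.16 to 0.74, adjusted p = 0.644), or 0.16 without propolis 1. The probe reports total Xbp1 and does not separate the spliced from the unspliced form. Ern1 was lowest in propolis 1 at -1.10, against -0.91 to -0.27 in vehicle and -0.49 to -0.41 in the other propolis arrays. Its difference of -0.15 became 0.07 without propolis 1 and 0.01 after median scaling. Eif2ak3 and Atf6 had differences of 0.27 and 0.13. Atf4, which is controlled mainly at translation, was between 6.06 and 6.27 on all 6 arrays, and its difference of 0.05 had an interval of -0.33 to 0.43. The sign of Atf4 was negative after quantile scaling, and its dimmer probe gave -0.11.

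Among the PERK and ATF4 targets, Trib3 was the only member with a lower mean apart from Ern1. It encodes a pseudokinase that binds AKT and is induced by ATF4 and CHOP. Trib3 was at 1.06, 1.05 and 1.28 in vehicle and 0.33, 0.25 and 0.52 in propolis. All 3 propolis arrays were below all vehicle arrays, by 1.70-fold on average. The difference of -0.77 had an interval of -1.18 to -0.35 and a limma adjusted p of 0.136, and it was -0.77 within slide 1 and -0.76 within slide 2. Over 20 alternative settings it stayed between -0.84 and -0.61, with adjusted p from 0.0682 to 0.9998.
The other 4 genes of the branch had higher means and overlapping arrays. Ddit3, which encodes CHOP, was at 0.08, 0.23 and 0.54 in vehicle and 0.32, 0.09 and 0.62 in propolis, a difference of 0.06. Ppp1r15a (GADD34, which restores translation), the glutathione-degrading enzyme gene Chac1 and the asparagine synthetase gene Asns differed by 0.27, 0.46 and 0.33. Chac1 and Ppp1r15a were highest in propolis 3, at -0.28 and 4.45, and Asns in propolis 1, at 2.62, without which it differed by 0.05. The PERK and ATF4 targets therefore had no common highest array, with 1 of 5 highest in propolis 1 and 3 of 5 in propolis 3.

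ER-associated degradation returns misfolded proteins to the cytosol for destruction. Herpud1, a scaffold of the complex, Edem1, which recognises trimmed glycans, Sel1l, the adaptor, and Syvn1, the ubiquitin ligase HRD1, had differences of 0.24 to 0.37, and none reached an unadjusted p under 0.05. Edem1 was at 2.63, 2.61 and 2.41 in vehicle and 3.62, 2.81 and 2.32 in propolis. Propolis 1 was its highest array and propolis 3 its lowest. All 4 genes were highest in propolis 1, and without it their median difference went from 0.31 to 0.06.

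**Figure D2:**
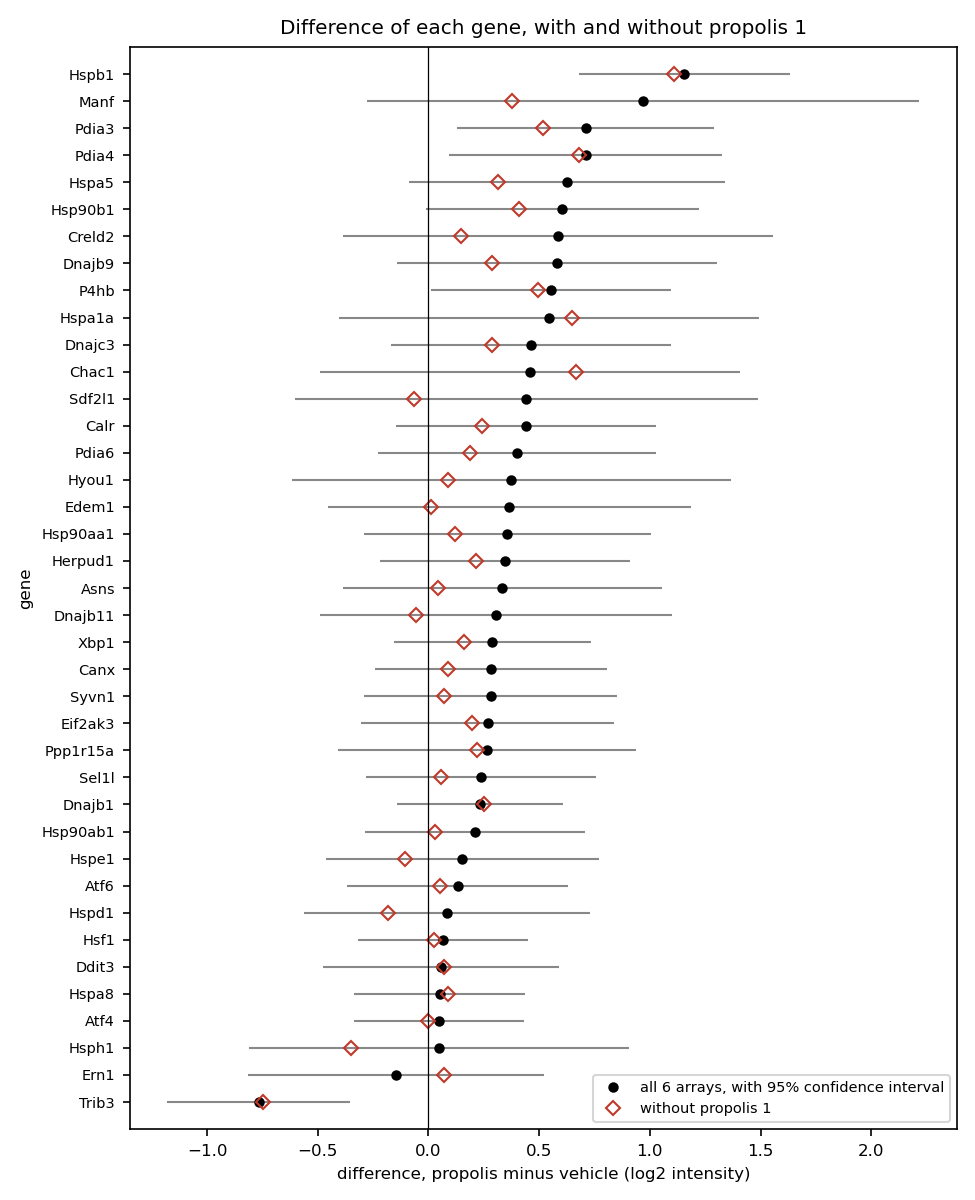
Difference between the propolis and vehicle means (x axis, log2 intensity) for each of the 39 genes (y axis), as black circles with 95% confidence intervals from limma. Open red diamonds give the difference without propolis 1, and they lie left of the circle for most ER genes, as for Manf (0.97 and 0.38) and Sdf2l1 (0.44 and -0.07), while Hspb1 (1.16 and 1.11) and Trib3 (-0.77 and -0.75) barely move. The signs of Atf4, Hsph1 and Hspd1 turn under quantile scaling and that of Ern1 under median scaling.

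Hspb1 came nearest to the threshold among all members. It encodes HSP27, a small heat shock protein that holds unfolded proteins and binds actin. Its levels were 6.46, 5.93 and 6.25 in vehicle and 7.47, 7.29 and 7.35 in propolis, or 6.21 ± 0.27 and 7.37 ± 0.09. All 3 propolis arrays were above all vehicle arrays and lay close together. The difference of 1.16 (interval 0.68 to 1.63), or 2.23-fold, had an unadjusted p of 0.000875 and a limma adjusted p of 0.0665. It was 1.19 within slide 1 and 1.10 within slide 2. Hspb1 passed with normexp background correction (adjusted p = 0.0419) and with a trended, robust variance model (adjusted p = 0.0312), and over all 20 alternatives the adjusted p ran up to 0.872.

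The other cytosolic members had smaller differences. Hspa1a, the stress-inducible HSP70, was at 1.15, 1.04 and 1.73 in vehicle and 1.64, 1.28 and 2.63 in propolis, so it was highest in propolis 3 and overlapped, with a difference of 0.54 (interval -0.40 to 1.49). Dnajb1, the co-chaperone HSP40, was at 3.83, 3.91 and 3.86 in vehicle and 4.06, 4.02 and 4.21 in propolis. Its arrays did not overlap, but the difference was small at 0.23 (adjusted p = 0.662). Hsp90aa1 and Hsp90ab1, the inducible and constitutive cytosolic HSP90 genes, differed by 0.36 and 0.21 and were both highest in propolis 1, at 5.04 and 7.16. Without that array their differences were 0.12 and 0.03.
Hspa8, the constitutive HSP70, and Hsf1, the factor that drives heat shock transcription, differed by 0.05 and 0.07. Probes of Hspa8 disagreed in sign, with 0.05, 0.33 and -0.01. Hsph1, an HSP110 exchange factor, was at 2.04, 2.00 and 2.23 in vehicle and 2.93, 1.63 and 1.85 in propolis. Propolis 1 was its highest array and propolis 2 and 3 its lowest, and the difference of 0.05 was -0.35 without propolis 1 and -0.03 after quantile scaling.

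Hspd1 and Hspe1 encode HSP60 and HSP10, which together form the folding chamber of mitochondria. Hspd1 was at 4.15, 4.13 and 4.01 in vehicle and 4.72, 4.03 and 3.79 in propolis, and Hspe1 at 4.27, 4.11 and 4.17 and then 4.85, 4.13 and 4.03. For both genes propolis 1 was the highest array and propolis 3 the lowest. Differences were 0.08 and 0.15, and both were negative without propolis 1, at -0.18 and -0.10. That of Hspd1 was also negative, at -0.01, after quantile scaling.

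Across all members, propolis 1 was the highest array for 28 of 39 genes (71.8%), as it was for 22.1% of all genes. Propolis 3 was highest for 6, propolis 2 for 2, vehicle 3 for 2 and vehicle 1 for 1. The lowest array was vehicle 3 for 14 members, as for 24.1% of all genes, vehicle 2 for 11, as for 15.6%, and propolis 1 for 1, as for 24.5%. Vehicle 3 and vehicle 2 were the arrays with high intestinal and acinar markers, whose part in these levels was not tested. Without both of them vehicle 1 was the only vehicle array left. Against that single array 34 of 39 propolis means were higher, and the median difference was 0.26. Propolis 1 exceeded the mean of propolis 2 and 3 by more than 0.5 log2 units for 22 members (56.4%), against 14.0% of all genes, with a median gap of 0.55 over the members and -0.03 over all genes. These shares of all genes were not matched for level, and 36 of the 39 members lay above the median level of all genes. In the deposited values the median of propolis 1 was the lowest relative to the 75th percentile, at -3.97, against -3.83 to -3.62 elsewhere. The median difference of the members was 0.26 after quantile scaling. The part of level and scaling in the position of propolis 1 was not tested. The 10 members with either ER stress element in their window were all highest in propolis 1, with a median gap of 0.61. Of 7 ER members with a window and neither element, 6 were highest there, with a median gap of 0.58. The 11 exceptions were the isomerase gene Pdia4, the sensors Ern1, Atf6 and Eif2ak3, the PERK and ATF4 targets Ddit3, Ppp1r15a, Trib3 and Chac1, and the heat shock genes Hspa1a, Hspa8 and Dnajb1.

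Other measures moved with propolis 1. Its 75th percentile of intensity, before scaling, was the highest of the 6 arrays at 858.9, against 525.8 to 731.9. Of 6 neutrophil markers, 5 were measured, and their mean level was 2.82 in propolis 1, against 1.09 to 1.72 in vehicle and 1.56 and 1.79 in the other propolis arrays. S100a8, S100a9 and Cxcr2 were highest there, S100a8 at 4.36 against 1.42 to 2.69 elsewhere and Cxcr2 at -2.31 against -4.94 to -3.58. Csf3r was lowest there, at 6.69 against 6.87 to 7.36, and Mmp9 was highest in propolis 3. All 10 intestinal markers exceeded the mean of propolis 2 and 3 by more than 0.5, with a median gap of 2.81, and their mean was -0.20 in propolis 1, below that of vehicle 3. The means of the B cell (-2.78), T cell (1.06) and adipocyte markers (1.23) were the lowest of the 6 arrays. The 8 plasma cell markers averaged 1.04 there and 0.77 to 1.64 in vehicle, but they include the member Xbp1 and the degradation gene Derl3. The other 6 averaged 0.29 in propolis 1, 0.33 to 1.25 in vehicle and 0.84 and 0.63 in the other propolis arrays. The part of intensity or of any of these cell types in the chaperone levels was not tested. In a mixed cell fraction, fewer cells of a type and less RNA per cell cannot be told apart.

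**Figure D3:**
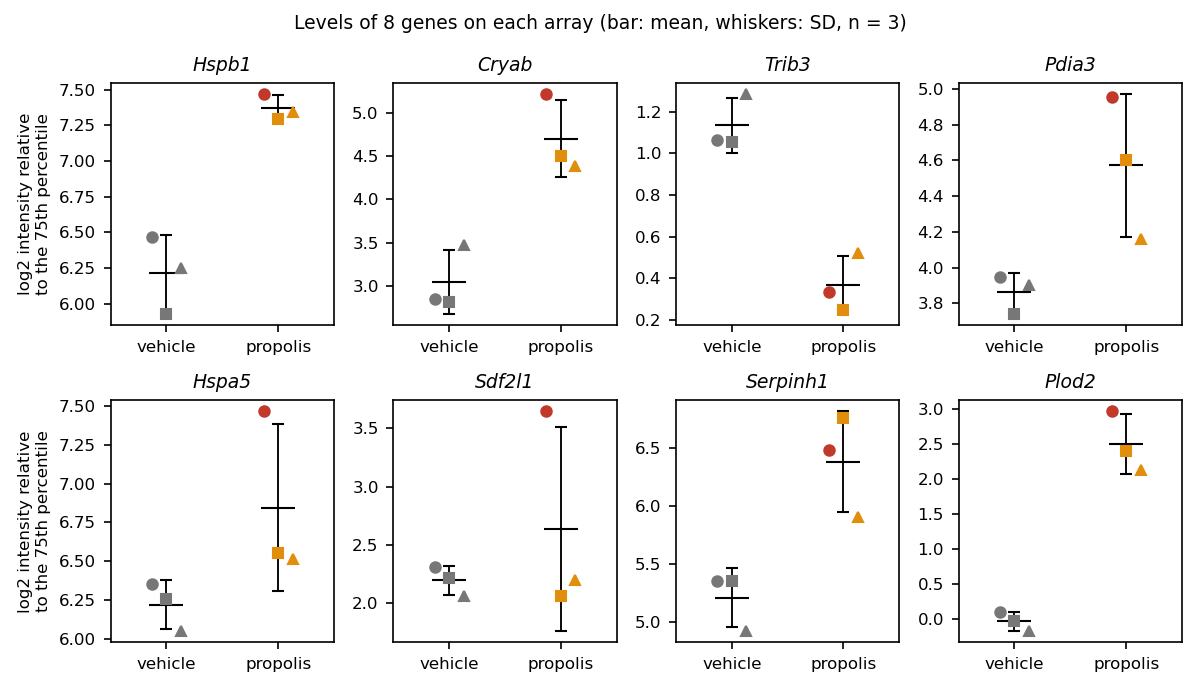
Log2 intensity relative to the array's 75th percentile (y axis, scaled for each gene) on each vehicle and propolis array for 8 genes, with mean and SD (n = 3); circles, squares and triangles are replicates 1, 2 and 3, and the red circle is propolis 1. Hspb1, its relative Cryab, Serpinh1 and Plod2 were high in all 3 propolis arrays and Trib3 low in all 3, whereas Sdf2l1 was high only in propolis 1 (3.65, against 2.06 to 2.31 on the other arrays).

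Neighbouring genes of the same pathways gave the members a context. The 12 genes of collagen folding in the ER held the only 2 of these genes that passed in the fit without a block. Plod2, the lysyl hydroxylase of collagen telopeptides, rose from 0.10, -0.02 and -0.17 in vehicle to 2.97, 2.41 and 2.13 in propolis, 5.79-fold (limma adjusted p = 0.0172). Creb3l1, a transcription factor held in the ER membrane that drives collagen secretion, rose from 1.98, 1.74 and 2.28 to 3.40, 3.21 and 3.45, 2.56-fold (adjusted p = 0.0488). Plod2 lost the call without vehicle 1, vehicle 2, vehicle 3 or propolis 2 (adjusted p from 0.0574 to 0.0946), and Creb3l1 without any 1 of the 6 arrays (0.0676 to 0.209). Creb3l1 also lost it under quantile scaling (0.0514), without the filter on dim probes (0.0843) and with a replicate block (0.0757), and passed in 8 of 20 alternatives, against 14 of 20 for Plod2.
Serpinh1, the collagen chaperone HSP47, was at 5.36, 5.36 and 4.92 in vehicle and 6.49, 6.76 and 5.91 in propolis, a difference of 1.17 (adjusted p = 0.149). Serpinh1 passed with slide as a block (adjusted p = 0.0445). Fkbp10, a collagen prolyl isomerase, differed by 1.08 (adjusted p = 0.103). The mean of the 12 genes was 2.46 to 2.63 in the vehicle arrays and 3.32, 3.34 and 3.29 in propolis 1 to 3. Here the list means of the 3 propolis arrays stood together, while single genes differed between those arrays, as Serpinh1 did. The distance from propolis 1 to the mean of propolis 2 and 3 ran from -0.53 to 0.70 over the 12 genes. Of these, 1 of 12 was highest in propolis 1, unlike the ER lumen chaperones with 11 of 11. That contrast was seen in the values and was not tested.

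In the other lists none passed. Over all genes, 11.7% reached an unadjusted p under 0.05, 50.4% had lower means and 22.1% were highest in propolis 1. Of 20 further ER folding and secretory genes, 18 had higher means, with a median of 0.43, and 6 reached an unadjusted p under 0.05, among them the isomerase genes Pdia5 and Txndc5 (0.79 and 0.69) and Cnpy2 (0.71). Of these 20, 12 were highest in propolis 1. The 11 further ER-associated degradation genes had a median of 0.27, with none at an unadjusted p under 0.05 and 8 highest in propolis 1. Of 14 further ATF4 and integrated stress targets, 9 had higher means, and 2 reached an unadjusted p under 0.05, Nupr1 at 1.04 and Cebpb at 0.87. Those 2 are 14.3% of the list, near the share of all genes.
The 20 further cytosolic chaperones had a median of 0.21 and 14 were highest in propolis 1. Cryab, which encodes the small heat shock protein alpha B-crystallin, was the 1 gene of that list with an unadjusted p under 0.05. It was at 2.85, 2.82 and 3.48 in vehicle and 5.21, 4.50 and 4.39 in propolis, a difference of 1.65 or 3.14-fold (limma adjusted p = 0.0848). Like Hspb1, Cryab was higher in all 3 propolis arrays. Of 9 further mitochondrial chaperones and proteases, 7 had higher means, with a median of 0.07. The 12 dissociation and immediate early genes had a median of 0.17, and their mean was 4.64, 3.94 and 4.23 in vehicle and 4.50, 3.99 and 4.94 in propolis. Their part in the member levels was not tested.

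**Figure D4:**
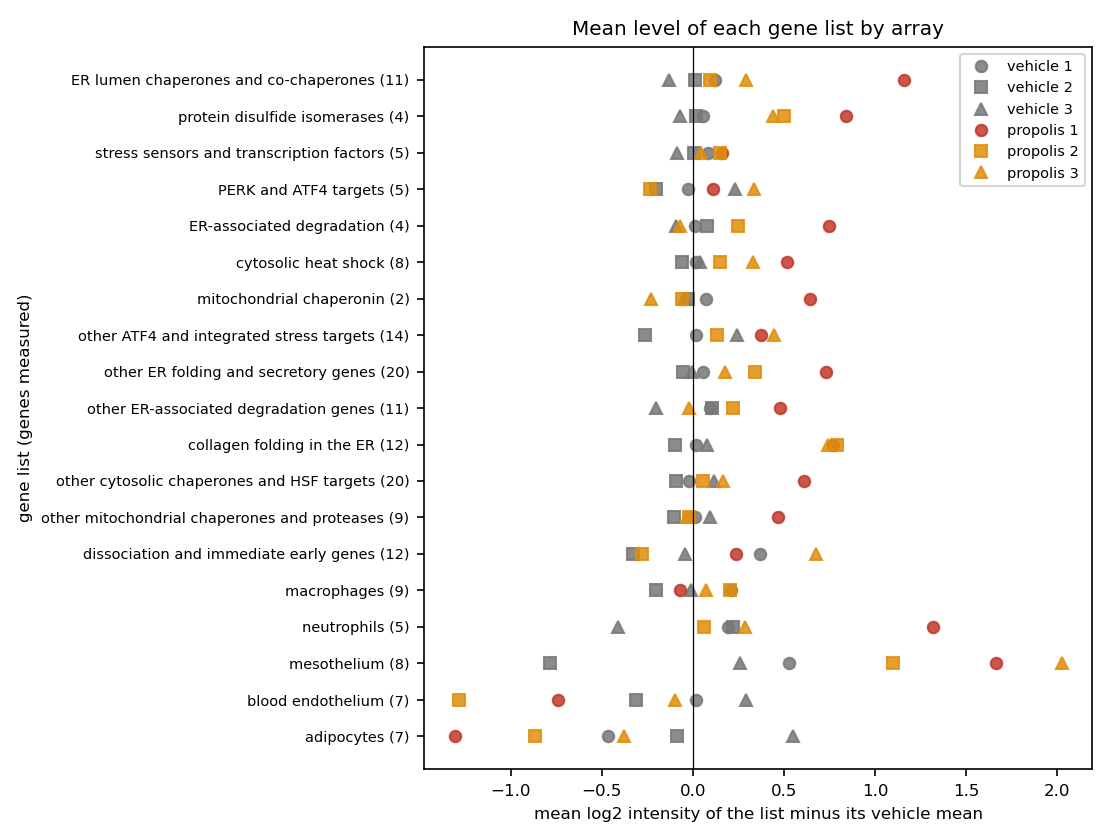
Mean log2 intensity of each gene list on each array minus its mean over the 3 vehicle arrays (x axis), with the number of measured genes after each list name (y axis). Propolis 1 (red circle) stands apart from propolis 2 and 3 (orange) for the ER lumen chaperones (4.50, against 3.43 and 3.63 before the vehicle mean was subtracted), for ER-associated degradation and for neutrophils, while the 3 propolis arrays coincide for collagen folding.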

How the data were processed

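The deposited scanner tables hold the processed signal, a background-corrected intensity in arbitrary units on a linear scale, which the authors read with Agilent Feature Extraction 10.7.3.1, per the submitters' processing notes. The deposited series table holds log2 values whose 75th percentile lies near 0 on each array, and served as an alternative. After removal of non-uniform spots, log2 processed signals were averaged over the spots of a probe and expressed relative to the 75th percentile of the array. Probes well above background on at least 3 of 6 arrays entered (34786 of 55681, of which 4 lacked a value and were dropped), and the brightest stood for its gene. Accessions gave 27235 probes a symbol through a RefSeq table of GRCm38.p6; 28446 have none here. The array design was made on mm9.

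The test was that of limma 3.58.1 (lmFit, eBayes, no block; R 4.3.3), its p-values were adjusted by Benjamini-Hochberg across the 25777 genes with a threshold of 0.05, and the script was tested on simulated data. The number of arrays limits the precision, and an exact permutation p cannot go below 0.1 here. The members, gene lists and alternatives were chosen with earlier results of these data known. Any member could be named; from each pathway list, genes that passed and otherwise up to 3 of lowest p; from each cell type list, up to 3 of highest level or largest range. Bnc1 and Wt1 were named because they passed, after their values were seen. All 5 measured neutrophil markers were named, which goes beyond that limit. Pdia2, named from the acinar list, was not among the 3 of highest level or largest range there. Alternatives covered background correction, scaling, filter, flags, probe rule, variance model, the series table, slide and replicate blocks, slide 1 alone and arrays left out. Normexp used median signals with an offset of 50. Protein sequences were not used here.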

Additional observations from a re-analysis of the deposited data

How the results depend on the processing

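Over all genes 215 were called, and 199 to 317 were called under normexp, quantile and median scaling, the stricter filter, kept flags, mean of probes, the trended variance model, the series table and the slide block. The count was 106 without the filter, 0 in slide 1 alone (5856 at an unadjusted p under 0.05), 11 to 94 with 1 array left out, and 0 without vehicle 2 and vehicle 3 together (1362 unadjusted); the last and slide 1 alone use fewer samples. Leaving out propolis 1 with slide as a block, an alternative chosen after seeing the data, gave 57. With replicate number as a block 73 genes were called and no member was. Whether the numbers pair the samples could not be decided. Each gene's group mean was subtracted, and the deviations that remained correlated at 0.04, 0.29 and 0.14 between same-numbered arrays. By these deviations, only replicates 2 and 3 correlated best with their own number in both directions. Vehicle 3 and propolis 3 alone were on slide 2, so for them the correlation cannot separate pairing from slide. Median scaling moved the median of all genes to 0.154.

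The number of members called was 0 except for 1 (Hspb1) under normexp and 1 (Hspb1) under the trended variance model; the cause was not tested. The median difference of the members was 0.12 to 0.42 with 1 array left out, lowest without propolis 1. Signs reversed as follows, and the cause was not tested. Without propolis 1 and with slide as a block, Dnajb11 was at -0.036, Sdf2l1 at -0.057, Ern1 at 0.13, Ddit3 at -0.0046, Hsph1 at -0.39, Hspd1 at -0.15 and Hspe1 at -0.10. Quantile scaling put Atf4 at -0.026, Hsph1 at -0.031 and Hspd1 at -0.010, median scaling put Ern1 at 0.012, and the mean of probes put Atf4 at -0.031. Without vehicle 2 and vehicle 3, Atf4 was at -0.024, Ppp1r15a at -0.0044 and Hspa8 at -0.020, and in slide 1 alone Hspa8 was at -0.036. With 1 array left out, the ranges of the members that reversed were -0.056 to 0.49 (Dnajb11), -0.066 to 0.73 (Sdf2l1), -0.34 to 0.071 (Ern1), -0.0031 to 0.10 (Atf4), -0.082 to 0.19 (Ddit3), -0.019 to 0.087 (Hspa8), -0.35 to 0.30 (Hsph1), -0.18 to 0.28 (Hspd1) and -0.10 to 0.31 (Hspe1). The other 29 members kept their sign under all 20 alternatives. With 3 arrays a group, members whose intervals span 0 could not be told from either direction; no spot was saturated.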
